A study of Arabidopsis thaliana with 6 samples.

Results

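Plants answer microbes, wounding and some hormones by secreting small proteins into the cell wall and the space between cells. The families include lipid transfer proteins, which carry a hydrophobic pocket inside a scaffold of paired cysteines, PR-1-type proteins of the CAP family, lectins that bind sugars, and glucanases and chitinases that cut the wall polymers of fungi. Many members are switched on together with salicylic acid or jasmonate signalling, while others belong to the normal growth of roots and leaves.

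The results here concern 4 such genes of Arabidopsis thaliana, each with 1 probe set, among 22746 probe sets measured: the lipid-transfer-like AT4G12490, the lectin-like AT3G16530, the PR-1-like AT4G33720 and the glucanase AT4G16260. They were chosen by name because of their values on these same arrays, so the values in the 3 comparisons below are descriptions and carry no test of their own. Total RNA of whole seedlings, 9 days old, was hybridised to Affymetrix arrays, 6 in all and 2 for each of 3 groups. Seedlings of line HY213 were taken after 8 h of mock treatment or 8 h of estradiol, and wild type after 8 h of estradiol, with no mock-treated wild type among the 6 samples. The ecotype is given as Columbia, except that the label of mock-treated HY213 replicate 1 names none. HY213 is read here as the series' pER22-AGL24 line, since the sample titles set it against the wild type. It carries AGL24, a MADS-box regulator that promotes flowering, under the XVE system, in which a chimeric transcription factor activated by estradiol turns on the transgene. The labels name neither the tissue in which that factor is made nor the number of independent lines. The design text describes the replicates as biologically independent pools.

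The targeted gene AGL24 read 106 and 401 intensity units in estradiol-treated HY213 and 4.60 to 5.05 on the other 4 arrays, below the Bacillus controls, which are probe sets for bacterial transcripts and mark background here. The highest of these controls stood at 5.14 to 6.22 on the 6 arrays. Array medians were 6.95 to 7.27. Arrays of the same replicate number deviated together from their group means, with r of 0.665 to 0.822 across probe sets, which are not independent of each other, so each replicate number is treated as a round of the experiment and the groups are compared within it. Of the green tissue markers, LHCB4.1 and RCA read far above the controls on all arrays, while the stem cell gene CLV3 read 5.13 to 5.84. Of the root markers, PYK10 read 1044 to 1374. In whole-seedling RNA, fewer cells of a type and less RNA per cell cannot be told apart.

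In HY213 after estradiol, AT4G12490 and AT3G16530 stood higher than in both other groups and AT4G33720 stood about 4-fold lower than in mock, in both rounds. AT4G16260 was below mock-treated HY213 in both estradiol-treated groups. Wild type differs from that mock group in line as well as in treatment, and these cannot be told apart. In the wild type after estradiol, AT4G33720 differed between the rounds by more than any of the other 3 genes did in any group.

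**Figure D1:**
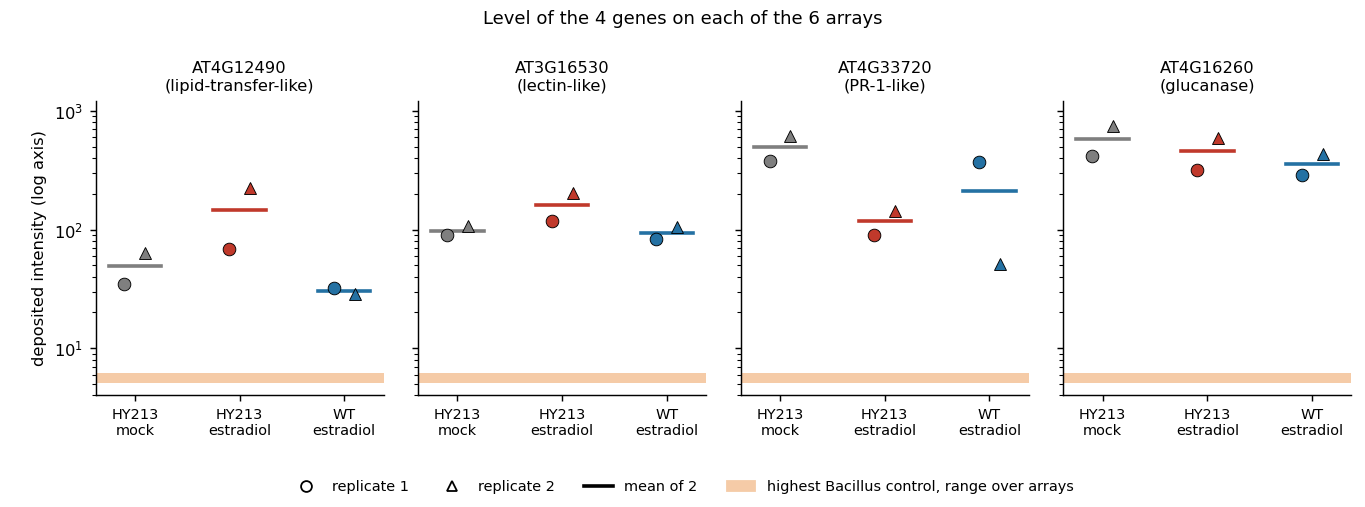
Deposited intensity of each gene (log axis) in mock-treated HY213, estradiol-treated HY213 and estradiol-treated wild type (WT); circles are replicate 1, triangles replicate 2, bars the mean of 2, and the band spans the highest Bacillus control of the 6 arrays, 5.14 to 6.22. AT4G33720 read 369 and 51.0 in the 2 wild-type arrays, on either side of estradiol-treated HY213.

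AT4G12490 belongs to the EARLI1 type of lipid transfer proteins, small secreted proteins with a proline-rich stretch before the cysteine scaffold. It read 34.99 and 63.3 in mock-treated HY213, replicates 1 and 2. After estradiol it read 69.0 and 224 in HY213 and 32.4 and 28.8 in wild type. The group means were 49.1 ± 20.0 in mock, 147 ± 110 in estradiol-treated HY213 and 30.6 ± 2.60 in wild type (SD, n = 2 each). Both estradiol-treated HY213 arrays lay above the other 4, and replicate 2 lay well above replicate 1. The neighbouring groups in this order, mock and wild type, were closer to each other than the mock arrays were to one another. Within replicate 1 the estradiol-treated line stood 1.97-fold over mock and 2.13-fold over wild type, and within replicate 2 the ratios were 3.54 and 7.79. The larger ratio to wild type in replicate 2 came with a wild-type level that stayed near that of replicate 1 while mock-treated HY213 stood 1.81-fold higher in replicate 2. Ranked among all probe sets of each array, AT4G12490 moved from percentiles 81.2 and 87.1 in mock to 88.7 and 95.8 after estradiol, with 80.6 and 77.9 in wild type. On the log2(intensity + 16) scale, the mean stood above mock by 1.17 ± 0.49 (SE) and above wild type by 1.62 ± 0.49 (SE). The SE was 0.31 with replicate number as a block. The second of these differences ranked 2 from the top of 22746. In ratios, it is 1 of 3 probe sets (0.0132%) that stood 2-fold higher than wild type in both replicates, and at 1.97 it lies just outside the 9 (0.0396%) that did so against mock. Its replicate 1 ratio to mock was 2.04 under quantile and 2.02 under median normalization, inside that limit.

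AT3G16530 encodes a legume-type lectin, a class of proteins that bind sugars. It read 89.6 and 106 in mock-treated HY213. It read 117 and 203 after estradiol in the same line, and 82.8 and 105 in estradiol-treated wild type. The mock and wild-type arrays overlapped, with means of 98.0 ± 11.8 and 94.0 ± 15.8 (SD, n = 2 each), and both estradiol-treated HY213 arrays lay above them at a mean of 160 ± 60.8 (SD, n = 2). Within replicate 1 estradiol-treated HY213 stood 1.31-fold over mock and 1.42-fold over wild type. Within replicate 2 these ratios were 1.91 and 1.93. Wild type after estradiol stood at 0.924 and 0.990 of mock-treated HY213 for this gene, and at 0.927 and 0.455 for AT4G12490, so the 2 genes were alike in replicate 1 and apart in replicate 2. On the log2(intensity + 16) scale the step above mock was 0.59 ± 0.30 (SE) and the step above wild type 0.64 ± 0.30 (SE), with an SE of 0.18 in the blocked model. AT4G12490 and AT3G16530 are thus 2 of the 4 genes with both estradiol-treated HY213 arrays above the rest, a pattern that 4.19% of all probe sets showed and that was in view when the genes were chosen.

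AT4G33720 encodes a protein related to PR-1, the salicylic acid marker of the CAP family. It read 375 and 609 in mock-treated HY213. After estradiol it read 90.5 and 144 in HY213, and 369 and 51.0 in wild type. The means were 492 ± 166 in mock, 117 ± 38.0 in estradiol-treated HY213 and 210 ± 225 in estradiol-treated wild type (SD, n = 2 each). Mock and estradiol-treated HY213 did not overlap, while the 2 wild-type arrays lay far apart, replicate 1 just under the lower mock array and replicate 2 under both arrays of the estradiol-treated line. Within HY213, mock stood 4.14-fold over estradiol in replicate 1 and 4.22-fold in replicate 2. The log2(intensity + 16) difference of -1.92 ± 0.78 (SE) ranked 1 from the bottom of all probe sets. AT4G33720 is 1 of 2 probe sets, 0.00879%, that stood 2-fold lower in both replicates. The SE is pooled over all groups, so the split between the wild-type arrays enters it although they are not in this comparison. With only the 4 arrays compared the SE was 0.35, and with replicate number as a block 0.66. Wild type and mock were nearly equal in replicate 1, at a ratio of 0.984, and 11.9-fold apart in replicate 2. Through replicate 2, the log2 difference of wild type against mock, -1.62 ± 0.78 (SE), also ranked 1 from the bottom of all probe sets. Against wild type the estradiol-treated line was therefore 4.07-fold lower in replicate 1 and 2.83-fold higher in replicate 2, and its mean log2 difference of -0.30 ± 0.78 (SE) stands for neither round.

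The wild-type arrays are where AT4G33720 varied, and there it fell to a ratio of 0.138 of replicate 2 over replicate 1, rank 18 from the bottom of 22746 probe sets. In HY213 its replicate 2 values were 1.63-fold those of replicate 1 in mock and 1.59-fold after estradiol. Of the 11 root markers listed, 3 were measured, and summed they read 1328 and 1063 in wild type, 1367 and 1196 in mock and 1414 and 1178 in estradiol-treated HY213. PYK10 made up nearly all of these sums. EXPA18, an expansin of root hair cells, read 28.4 and 8.87 in wild type, 24.2 and 17.4 in mock and 18.6 and 9.56 in estradiol-treated HY213. EXPA7, of the same cells, read 21.4 and 9.99, 23.2 and 16.8, and 21.6 and 13.9 in these groups. In replicate 1 AT4G33720 was lowest in estradiol-treated HY213, as EXPA18 was, while EXPA7 and PYK10 were lowest in wild type. In replicate 2 AT4G33720 and all 3 markers were lowest in wild type, the markers at far smaller ratios, and the part of root tissue in the AT4G33720 values was not tested. The 3 measured of 11 green tissue markers summed to 1245 and 2327 in wild type, against 1674 and 2040 in mock and 1374 and 1966 in estradiol-treated HY213. Most of the wild-type difference was in RCA, the Rubisco activase gene, at 195 and 1036, and its part was not tested either.

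AT4G16260 encodes a beta-1,3-glucanase of glycosyl hydrolase family 17, enzymes that cut callose and related glucans. It read 419 and 746 in mock-treated HY213. It read 317 and 594 after estradiol in that line and 287 and 429 in estradiol-treated wild type. The means were 583 ± 231, 455 ± 196 and 358 ± 100 (SD, n = 2 each). All 3 groups overlapped, because replicate 2 exceeded replicate 1 in each, by 1.78-, 1.88- and 1.49-fold. The order mock, estradiol-treated HY213, wild type was nevertheless the same in both rounds. Within replicates, estradiol-treated HY213 stood at 0.755 and 0.796 of mock, and wild type at 0.684 and 0.574 of mock. The estradiol-treated line stood 1.103- and 1.385-fold over wild type. The log2(intensity + 16) difference was -0.36 ± 0.41 (SE) between estradiol and mock in HY213, and the SE fell to 0.15 with replicate number as a block. For wild type against mock it was -0.65 ± 0.41 (SE). The difference between estradiol and mock was 0.082 without estradiol-treated HY213 replicate 1 and 0.049 without mock replicate 2, and the estradiol-treated line stood at -0.14 against wild type without its replicate 2, so these directions rest on comparing within rounds.

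**Figure D2:**
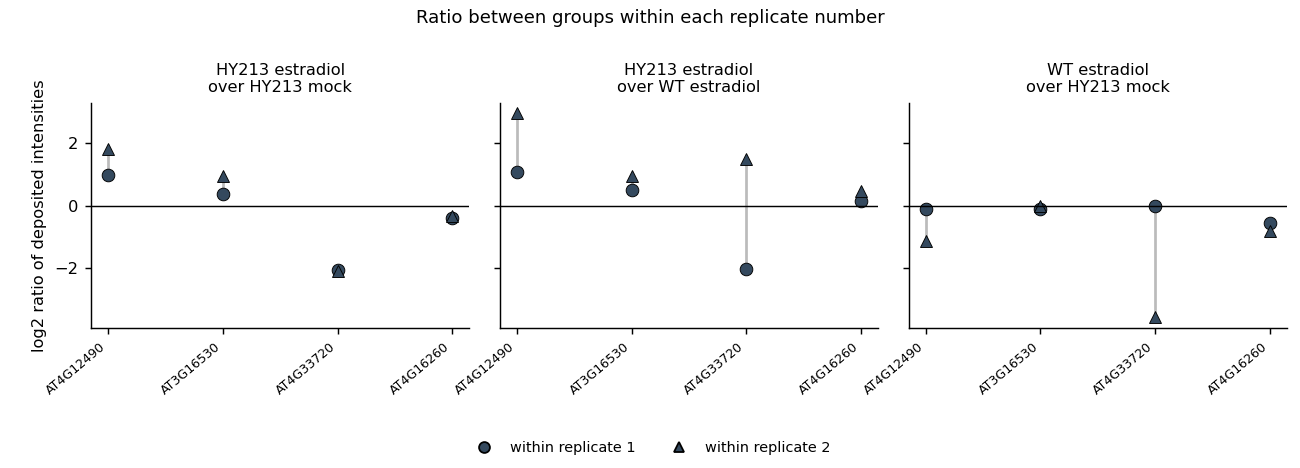
Log2 ratio of deposited intensities between groups within replicate 1 (circles) and replicate 2 (triangles), for the 3 comparisons; the line at 0 marks equal values. AT4G33720 lay at -2.05 and -2.08 for estradiol over mock in HY213, and at -2.03 and 1.501 for estradiol-treated HY213 over wild type.

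No probe set passed an adjusted p of 0.05 in limma in any of the 3 comparisons (0% of 22746, with 272 at an unadjusted p under 0.05 for estradiol against mock in HY213, 176 for estradiol-treated HY213 against wild type and 268 for wild type against mock). With the replicate block the calls were also 0, with 962, 826 and 1215 at an unadjusted p under 0.05. The 4 genes are among the probe sets not called, and 2 arrays per group limit what such a fit can call. The comparisons share arrays. Estradiol-treated HY213 enters the first and the second, so the higher values of AT4G12490 and AT3G16530 in both are not independent observations. Mock-treated HY213 enters the first comparison and that of wild type with mock, so the lower values of AT4G16260 in both are not independent either.

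The families of the 4 genes and the defence pathways around them were followed through 9 lists of 179 other loci, of which 75 had a probe set listed for a single gene. Of these 75, 39 read above the highest Bacillus control on all 6 arrays and 7 on none of them. In every list 0 genes passed in limma in either direction, with or without the replicate block. Both estradiol-treated HY213 arrays lay above the other 4 in 8 of the 75 genes, beside 4.19% of all probe sets, and below them in 2, beside 3.56%. The 8 genes read at most 16.2 units on any array. Direction counts below are of genes higher or lower in both replicates on the deposited values, beside the share of all probe sets doing so. For estradiol against mock in HY213 these shares were 25.6% higher and 24.2% lower, and the median log2 difference of all probe sets was -0.00044.

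Among the lipid transfer proteins, 12 of 34 other loci were measured, with 5 higher, 2 lower and a median log2 difference of 0.030 for estradiol against mock, and 4 higher and 1 lower under quantile or median normalization. AT4G12500, an EARLI1-type gene of the chromosomal cluster that holds AT4G12490, read 31.0 and 59.3 in estradiol-treated HY213 against 14.9 and 43.2 in mock and 20.0 and 21.996 in wild type. Its ratios were 2.08 and 1.37 to mock and 1.55 and 2.69 to wild type, so it stood higher in both rounds of both comparisons, as AT4G12490 did, although its 2 estradiol-treated HY213 arrays did not both exceed the mock arrays. On the log2(intensity + 16) scale it stood 0.47 ± 0.34 (SE) above mock and 0.69 ± 0.34 (SE) above wild type, which limma did not call (adjusted p = 1 for both). AT4G12530, further along the same cluster, read 4.50 to 5.19, below the controls on every array. AT4G22470 read 75.9 and 188 against 41.2 and 210 in mock, so the rounds disagreed. AT2G10940 read 533 and 151 against 591 and 404 in mock and 449 and 397 in wild type, with its low value on estradiol-treated HY213 replicate 2, the array on which AT4G12490 was highest. AT2G45180 read 1892 and 2008 against 1750 and 1848 in mock.

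The PR-1-type list had 18 of 21 other loci measured, with 2 higher, 6 lower and a median of -0.029 for estradiol against mock. AT4G33710 and AT4G33730 flank AT4G33720 on the chromosome and read near background. AT4G33730 read 5.52 and 4.97 after estradiol in HY213 against 7.32 and 7.40 in mock, and 5.81 and 4.83 in wild type, while AT4G33710 read 5.25 to 6.68 over all arrays. Of the 18, AT2G19970 alone reached 32 units on any array. It read 40.2 and 11.1 in estradiol-treated HY213, 40.05 and 15.2 in mock and 27.8 and 13.6 in wild type, so it differed mostly between the rounds. AT4G07820 was 1 of the 2 list genes with both estradiol-treated HY213 arrays below the other 4, at 7.74 and 8.23 against 9.90 and 10.95 in mock and 10.67 and 16.8 in wild type. It was named for those values. PR1 itself has no probe set listed for a single gene and was not analysed here.

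The glucanase list had 13 of 18 other loci measured. For estradiol against mock 0 were higher and 5 lower, with a median of -0.020. For wild type against mock 0 were higher and 8 lower, where 24.2% of all probe sets were lower, with a median of -0.018. Under quantile or median normalization 7 were lower. Of these genes, all but AT1G11820 and AT2G05790 were dim, at no more than 9.75 units on any array. Of the 13, 9 read above the Bacillus controls on all arrays. AT4G16260 was lower in both rounds of both comparisons, at a log2 difference of -0.65 for wild type against mock. AT1G11820 read 65.1 and 78.8 in estradiol-treated HY213, 74.0 and 94.0 in mock and 61.8 and 82.1 in wild type. AT3G55430 read 63.7 and 163, 89.9 and 91.4, and 82.4 and 198 in these groups, so the rounds differed more than the groups. AT2G05790 read 70.1 and 36.2, 52.5 and 39.1, and 49.9 and 29.5.

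Chitinases, the enzymes that cut fungal wall chitin, were measured at 11 of 15 loci, and 10 were higher and 1 lower after estradiol in HY213, with a median of 0.061. Against wild type 4 were higher and 1 lower, where all probe sets gave 27.4% and 25.4%. For wild type against mock 5 were higher and 2 lower, where all probe sets gave 24% and 24.2%. The steps were small, and many of the genes were dim. Of the 11, 3 reached 32 units on any array and 7 read above the Bacillus controls on all arrays. AT2G43610 read 66.0 and 54.8 against 57.0 and 45.8 in mock and 73.3 and 31.6 in wild type. AT4G01700 read 32.4 and 17.9 against 18.4 and 16.7 in mock and 19.3 and 13.3 in wild type. It met the limit of 32 units for named genes through estradiol-treated HY213 replicate 1 alone. AT2G43590 read 16.7 and 40.4 against 13.1 and 37.7 in mock and 27.1 and 31.0 in wild type. AT2G43620, named for its values, read 16.2 and 15.8 in estradiol-treated HY213 and 9.63 to 11.02 on the other 4 arrays.

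Of the soluble lectins, 6 of 18 other loci were measured, and all 6 were higher in both replicates after estradiol in HY213, with a median of 0.054, a count that went to 5 under quantile normalization. Against wild type 4 were higher and 0 lower, where all probe sets gave 27.4% and 25.4%. Under quantile or median normalization 3 were higher. For wild type against mock 4 were also higher and 0 lower, where 24% of all probe sets were higher. The jacalin-type lectin JAL33 read 434 and 306 against 426 and 242 in mock and 387 and 272 in wild type. JAL34 read 459 and 402 against 422 and 355 in mock and 470 and 379 in wild type. The other 4 genes stayed close to the controls.

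Defensins, thionins and thaumatin-like proteins were measured at 12 of 16 loci, with 5 higher, 1 lower and a median of 0.022 for estradiol against mock. Quantile normalization gave 4 higher and 2 lower, and median normalization 6 and 1. The defensin-type gene PDF1.4 read 84.7 and 135 in estradiol-treated HY213, 92.5 and 97.6 in mock and 81.6 and 56.0 in wild type. LCR68 read 103 and 101 against 111 and 92.6 in mock and 86.1 and 68.6 in wild type. Both stood higher in estradiol-treated HY213 than in wild type in each round, with log2 differences of 0.56 ± 0.28 (SE) and 0.35 ± 0.22 (SE), and neither passed in limma (adjusted p = 1 for both). LCR69 and the osmotin gene OSM34 differed mainly between the rounds. LCR69 read 436 and 828 in estradiol-treated HY213, 441 and 725 in mock and 399.6 and 788 in wild type. OSM34 stood at 123 and 474 against 190 and 413 in mock and 223 and 488 in wild type. PDF1.2, the jasmonate and ethylene marker among defensins, read 4.87 to 6.43 on all arrays. Of the pathway lists, 1 of 18 salicylic acid genes, 0 of 18 jasmonate and ethylene genes and 2 of 21 early immune genes had a listed probe set, so the hormone pathways cannot be followed here. WRKY22, an early immune transcription factor, read 22.02 and 42.3 in estradiol-treated HY213, 21.9 and 30.3 in mock and 15.99 and 38.8 in wild type.

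**Figure D3:**
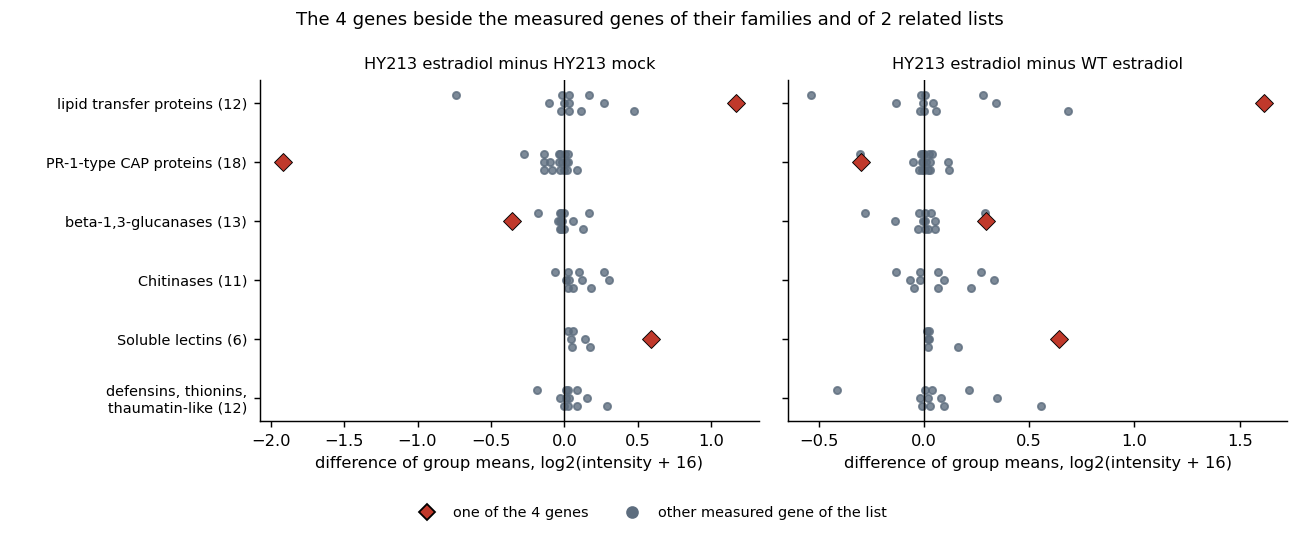
Difference of group means on the log2(intensity + 16) scale for the 4 genes (diamonds) and the other measured genes (dots) of each list, whose number is in brackets, for both comparisons with estradiol-treated HY213. AT4G12490 at 1.17 and 1.62 and AT3G16530 at 0.59 and 0.64 lie to the right of the dots of their lists. AT4G33720 at -1.92 lies to the left of its list in the first comparison only. AT4G16260 at -0.36 also lies to the left of its list in the first comparison. In the second it lies at 0.295, beside the highest dot of its list at 0.291. The 4 genes were chosen for such values.

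The genes with the most similar pattern were sought by Pearson's r of log2(intensity + 16) over the 6 arrays, among 2584 other probe sets listed for 1 gene that reached 32 units on any array. The arrays share the rounds of the experiment, so r also holds whatever the rounds share, and a gene with a small step can have a high r. AT4G12490 and AT3G16530 were each among the 5 genes most similar to the other, at r of 0.949. AT4G16410 was the most similar to both, at 0.965 and 0.995, and read 27.5 and 37.9 in estradiol-treated HY213, 24.2 and 25.95 in mock and 23.1 and 25.3 in wild type. It entered the search through its replicate 2 value in estradiol-treated HY213 alone, the array on which both genes were highest. AT4G32470 was similar to both as well, at 0.947 and 0.977, over a narrow range of 286 to 363. AT1G28580 (0.938) and AT3G19010 (0.926) completed the set for AT4G12490, and AT5G11810 (0.947) and AT4G34180 (0.939) that for AT3G16530. All of these read highest on estradiol-treated HY213 replicate 2, and that array weighs most in each r.

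For AT4G33720 the most similar genes were AT5G58570, with r of 0.951, and AT5G19890, with 0.933. AT5G19890 repeated the split between the wild-type arrays, at 255 and 48.1, and read 197 and 317 in mock-treated HY213 and 110 and 67.7 after estradiol. AT5G58570 read 32.8 and 18.3 in wild type, 30.7 and 34.3 in mock and 24.0 and 28.4 after estradiol. In estradiol-treated HY213, however, AT5G19890 read lower in replicate 2 where AT4G33720 read higher. These genes were picked for their likeness, and 1 of 2584 probe sets (0.0387%) reached r of 0.95 with AT4G33720. AT1G07830 (0.899), AT5G51510 (0.886) and NRPB6A (0.883), an RNA polymerase subunit gene, followed at narrow ranges, the last from 85.7 to 95.7. For AT4G16260, r was at least 0.95 for 5 genes. AT1G44920 had 0.983, at 19.6 and 27.1 in estradiol-treated HY213, 21.9 and 32.8 in mock and 18.99 and 22.4 in wild type. It entered the search through mock replicate 2 alone, the array on which AT4G16260 was highest. AT4G32870 had 0.981, at 36.4 and 73.1 in estradiol-treated HY213, 42.9 and 80.8 in mock and 30.7 and 43.6 in wild type. AT2G04400 (0.965), AT5G35730 (0.956) and AT1G61780 (0.951) were the others. Among the 4 genes themselves, r was 0.485 and 0.475 for AT4G16260 with AT4G12490 and AT3G16530. It was 0.294 for AT4G16260 with AT4G33720, and -0.092 and -0.36 for AT4G33720 with AT4G12490 and AT3G16530. The pair AT4G12490 and AT3G16530 thus had the only high r among the 4. All 4 were chosen for their values on these same arrays, so these r partly restate the choice and test no common pattern.

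**Figure D4:**
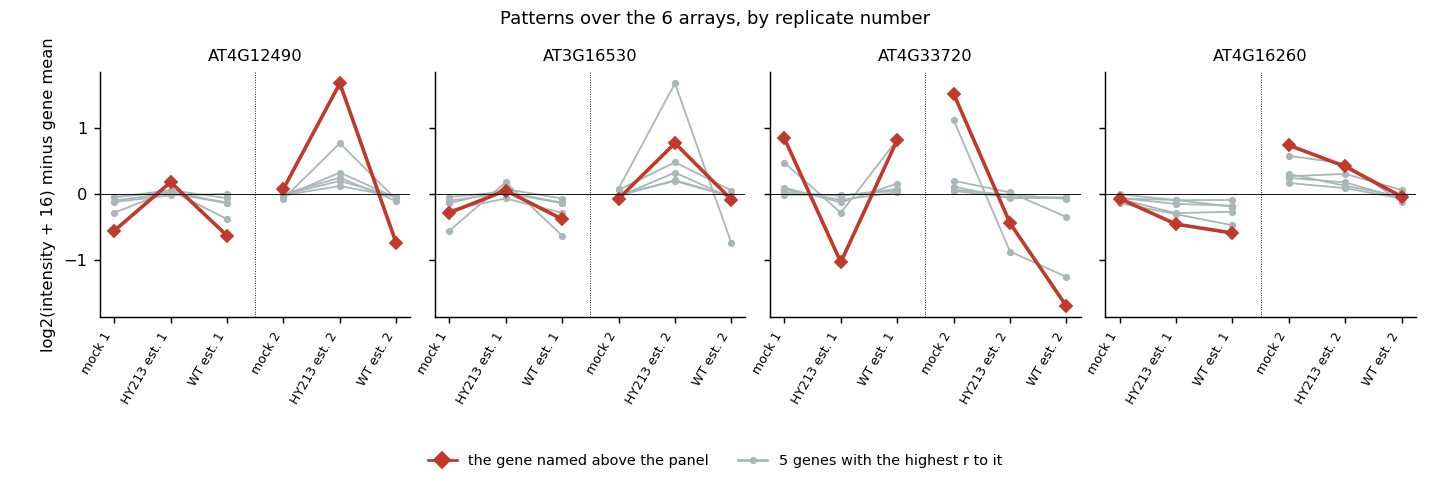
Level on the log2(intensity + 16) scale minus the gene's own mean over the 6 arrays, for each of the 4 genes (diamonds) and the 5 genes with the highest r to it (dots), with the arrays of replicate 1 left and those of replicate 2 right of the dotted line. The genes differ in the size of their steps and in the direction of some, as in wild type, where AT4G12490 read lower and AT3G16530 higher in replicate 2 than in replicate 1. AT4G32470 ranged from 286 to 363 units beside AT4G12490 at 28.8 to 224.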

How the data were processed

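The authors deposited 1 table of intensity values on a linear scale for 22810 probe sets of 6 biotin-labelled arrays, per the labels' protocols. MAS5 and RMA are named in the submitters' processing notes, and the sources used here do not say which made the values; the choice affects how dim probe sets spread. Control probe sets, 64 in number, entered no test. Of the other 22746 probe sets, platform annotation gives 1 gene for 13513, several for 503 and none for 8730, and loci were taken from RefSeq (TAIR10.1) for 13436. An unlisted probe set is unnamed here, and sequences and coordinates were not used.

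Values were taken to log2(intensity + 16), which understates differences of dim genes, and all 6 arrays entered a single limma fit (version 3.58.1 under R 4.3.3; lmFit, then eBayes with its trend option) with a mean for each group. P-values were adjusted by Benjamini-Hochberg over all probe sets, with a threshold of 0.05; 3 residual degrees of freedom remain, or 2 with replicate number as a block. The number of arrays limits the precision. The fitted differences were checked on simulated data whose arrays shared no rounds. That check does not bear on how many probe sets the fit calls in these data. The design text's replicated experiment and the correlated deviations were the grounds for taking replicate number as a round. The 4 genes, the gene lists and the rules were chosen with earlier results of these data known. Named genes were the 4 genes, AGL24, the listed chromosomal neighbours of AT4G12490 and AT4G33720, and the 5 genes most similar to each of the 4. Up to 4 genes per list were named as well, among those reaching 32 units on an array. They had the smallest unadjusted p in either comparison with estradiol-treated HY213. A gene named for its values is marked, and PDF1.2 was named outside these rules, as a marker. Root and green tissue markers are given as values. Alternatives were a pseudocount of 1 or 64, median or quantile normalization, omission of the 25% of probe sets with the lowest means, no trend, only the 4 arrays compared, the replicate block and each array left out.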

Additional observations from a re-analysis of the deposited data

How the results depend on the processing

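Outside leaving out an array, the 12 differences of the 4 genes kept their direction in 96 of 96 alternatives. They moved by less than 1 residual SD in 95, the exception being AT4G12490 against wild type at 1.05 with a pseudocount of 64. Omission of dim probe sets, no trend, the replicate block and only the 4 arrays compared cannot move a difference of group means. Their part of the 96 was therefore fixed in advance, and the pseudocounts and normalizations alone could have changed a direction. With the replicate block the counts of calls stayed at 0, 0 and 0, the calls in the gene lists at 0, and the differences at their values (1.17 and 1.62 for AT4G12490), with smaller errors, so it changed no call. With 1 array left out, a lone array is assumed to vary like the other groups and the rounds are unbalanced. Of 72 such differences, 66 kept their direction, among them those of comparisons without the omitted array, which cannot move. For estradiol against mock in HY213, AT4G12490 then ranged from 0.42 to 1.92, AT3G16530 from 0.23 to 0.95, AT4G33720 from -2.26 to -1.58 and AT4G16260 from -0.79 to 0.082. For estradiol-treated HY213 against wild type they ranged from 0.87 to 2.37, 0.28 to 1.003, -1.56 to 0.96 and -0.14 to 0.73. For wild type against mock they ranged from -0.77 to -0.13, -0.20 to 0.093, -2.88 to -0.36 and -1.05 to -0.25. The extremes of AT4G12490, AT3G16530 and AT4G16260 in the first 2 comparisons came without an estradiol-treated HY213 array, replicate 1 giving the higher and replicate 2 the lower value, and those of AT4G33720 in the other 2 comparisons without a wild-type array (0.96 and -2.88 without replicate 1, -1.56 and -0.36 without replicate 2). The count of probe sets called ranged from 0 to 13, 0 to 16 and 0 to 0 over the 3 comparisons, with 13 and 16 called without estradiol-treated HY213 replicate 1 and 1 in each without replicate 2. Calls in the gene lists stayed at 0 throughout. Signal over background limits the list genes, of which 36 of 75 did not clear the Bacillus controls on all arrays.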
